A study of Mus musculus with 18 samples.

Results

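This account covers 35 genes of the ATF4 program in mouse oligodendrocyte progenitor cells (OPCs), the proliferating cells that give rise to myelinating oligodendrocytes. The genes were listed by name and role, by a rule that uses no measured value, but the list was drawn up with earlier results of these data known. It holds Atf4 and 5 stress effectors linked to it, 7 enzymes of serine synthesis and folate one-carbon metabolism, 2 enzymes of proline synthesis, 7 amino acid transporters and 13 cytosolic aminoacyl-tRNA synthetases. All 35 were found among the 54279 rows of each of the 2 deposited tables. A filter on low values (a mean of at least 1 CPM, which is counts per 1000000, over the libraries of a table) left 31 of them in the tests of each table, and Asns, Phgdh, Slc7a1 and Slc7a3 did not pass it.

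The OPCs were derived from epiblast stem cells and grown in a medium with the mitogens Fgf2 and Pdgfa, N2max and B27. All of them had gone through CRISPR, either as CRISPR-Control cells or as CRISPR-Vhl cells. Vhl encodes the substrate receptor of the ubiquitin ligase that removes HIF transcription factors in the presence of oxygen. In a first experiment, control and Vhl cells were lysed without any drug. In a second, both kinds of cells received DMSO or 300 nM of AZD8330, which blocks MEK1 and MEK2, the kinases that activate ERK, for 14 h. The 6 groups held 3 libraries each, lettered A to C. Nothing in the labels ties the libraries of a group to different cultures, clones or edits. The p-values below therefore reflect the spread among these libraries and nothing wider, and it may be technical.

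ATF4 is a basic leucine zipper transcription factor made when amino acid shortage, endoplasmic reticulum stress, haem shortage or viral RNA leads to phosphorylation of the translation factor eIF2. General protein synthesis then slows while the Atf4 mRNA is translated more, so the level of that mRNA is only a partial measure of the protein. Growth factor signalling through mTORC1 also raises ATF4 in dividing cells. Its targets import amino acids, make serine, glycine, asparagine and proline, charge tRNAs, and supply folate-bound one-carbon units for purine and thymidine synthesis. In ATF4 targets the protein, often paired with a C/EBP protein, binds the C/EBP-ATF response element, whose core is read here as TGATGNAA.

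To show where this core lies, RefSeq promoter windows (build GRCm38.p6, 250 bases before to 50 bases after each start) were searched on both strands for TGATGNAA, whose reverse complement is TTNCATCA. Of the 35 genes, 26 had a window, and 11 of these 26 (42.3%) held the core, against 1219 of all 27025 genes (4.51%). Per window, 3.97% of all 32851 windows held it. A match is a description of letters and was not tested for binding. The stretches below are those of genes with the core before the start, given 5′ to 3′ on the gene's strand with the core in capitals. They are shown because these genes span the roles described below, from asparagine synthesis and glutathione breakdown to cystine import and tRNA charging.
Asns, chr6:7693210-7693262, minus strand: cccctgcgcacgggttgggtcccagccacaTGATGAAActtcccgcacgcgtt
Chac1, chr2:119351019-119351086, plus strand: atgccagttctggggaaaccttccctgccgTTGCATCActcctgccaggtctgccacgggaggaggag
Pycr1, chr11:120643814-120643881, minus strand: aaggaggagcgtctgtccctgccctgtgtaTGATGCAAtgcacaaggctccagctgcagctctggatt
Slc7a11, chr3:50443623-50443709, minus strand: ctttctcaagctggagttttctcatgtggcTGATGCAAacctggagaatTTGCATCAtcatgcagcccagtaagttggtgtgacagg
Aars, chr8:111033700-111033767, plus strand: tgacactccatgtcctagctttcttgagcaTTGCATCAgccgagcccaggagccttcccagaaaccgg
Gars, chr6:55037941-55038000, plus strand: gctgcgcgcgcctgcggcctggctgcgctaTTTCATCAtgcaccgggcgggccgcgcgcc
Tars, chr15:11399659-11399703, minus strand: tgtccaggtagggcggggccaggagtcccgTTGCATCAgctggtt
Slc7a11 held the core in both orientations, with 2 matches facing each other. The windows of Trib3, Slc1a4, Iars and Yars held it at or after the start, or overlapping it. The windows of Atf4, Psat1, Shmt2, Mthfd1 and Mthfd2 held no such letters.

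Libraries of the untreated experiment held 14594148 to 21160250 estimated counts, and those of the drug experiment 12391077 to 16349676. The common dispersion, a measure of the spread between libraries of a group, was 0.144 for the untreated libraries and 0.0161 for the drug experiment. In the untreated experiment Vhl library A, and for some genes control library A, stood apart from B and C. The counts and medians of the members, and the changes of some genes, are also given there without A libraries. Vhl RNA averaged 106 ± 3.40 CPM (SD, n = 3) in control DMSO cells, 92.4 ± 2.12 in Vhl DMSO cells, 138 ± 1.55 in control AZD8330 cells and 100.1 ± 7.03 in Vhl AZD8330 cells, and 121 ± 4.26 and 83.9 ± 8.56 in untreated control and Vhl cells. The sources used here do not describe the edit in the transcript, so this RNA does not measure the loss of the protein. Bnip3, a HIF target, rose by 5.04 on the log2 scale with Vhl loss in DMSO, and Dusp6, a target of ERK, fell by 4.31 with AZD8330 in control cells and by 3.55 in Vhl cells (edgeR's quasi-likelihood test, adjusted p = 1.98e-14, 1.34e-14 and 5.25e-14). The 8 OPC markers summed to 7991 to 9442 CPM over all 12 libraries of the drug experiment, but single markers moved. With AZD8330, 4 rose and 3 fell in control cells, against 29.1% and 31.7% of all tested genes. In Vhl cells 4 rose and 2 fell with it, against 25.8% and 25.6%. With Vhl loss in DMSO 5 rose and 1 fell, against 13.8% and 18.5%. Markers of other cell types also moved with AZD8330. The 5 astrocyte markers summed to 255 to 278 CPM in control DMSO cells and 1092 to 1160 in control AZD8330 cells, and to 159 to 173 and 557 to 598 in the Vhl cells. Markers of maturing oligodendrocytes (6 genes, Mog at 0 in all but 1 library) went from 141–146 to 439–473 CPM in control cells and from 163–178 to 371–402 in Vhl cells. The 5 neuronal markers went from 153–162 to 355–366 CPM in control cells and from 312–325 to 499–525 in Vhl cells. The 4 pluripotent cell markers went down, from 19.2–23.8 to 5.90–7.32 CPM in control cells and from 15.8–20.0 to 4.77–6.20 in Vhl cells. Most of that sum was Esrrb, which fell by 2.42 and 2.23 on the log2 scale (adjusted p = 9.66e-07 and 3.46e-06), while Nanog rose by 2.13 and 1.61 from means under 1 CPM (adjusted p = 0.000992 and 0.0144) and Pou5f1 was at 0 in every library. Microglial, endothelial, mesenchymal and Schwann cell marker sums stayed under 4 CPM in every library of the drug experiment, and the 3 endothelial markers summed to 1.64–3.56 CPM in the DMSO libraries and 0.131–0.935 in the AZD8330 libraries. The part of these other cell types in the values below was not tested, and in bulk RNA fewer cells of a type and less RNA per cell cannot be told apart.

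AZD8330 lowered most of the tested genes in both kinds of cells. In control cells, 20 of the 31 tested genes fell and 3 rose, against 31.7% and 29.1% of all tested genes (64.5% and 9.68% of the members). In Vhl cells, 19 fell and 3 rose, against 25.6% and 25.8% of all tested genes. The median log2 change of the tested members was -0.59 in control cells and -0.35 in Vhl cells, beside -0.01 and 0.03 over all tested genes. No library is shared by these comparisons, and 16 genes fell in both, which is 16 of the 20 in control cells (80%) and 16 of the 19 in Vhl cells (84.2%). Over all tested genes 23.3% fell in both, which is 73.5% of the falls in control cells and 91.1% of those in Vhl cells. Psat1 and Slc1a4 rose in both, and Slc1a5 fell in control cells and rose in Vhl cells.

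Vhl loss by itself also lowered many of the members in DMSO, with no call for Atf4 and its stress effectors. There, 15 of the 31 tested genes fell and 2 rose, against 18.5% and 13.8% of all tested genes, and the members' median was -0.28 beside -0.03 over all. The falls were among serine and folate enzymes (4 of 6), transporters (3 of 5) and synthetases (8 of 13). Of Atf4 and its stress effectors, 0 of 5 were called. Of 18 other tested genes linked to ATF4, 8 rose and 4 fell. With library sizes set by total counts, 14 fell and 2 rose, while rises made up 56.8% of the calls over all genes in place of 42.6%. Under AZD8330, 7 of the 31 fell with Vhl loss and 2 rose, against 14% and 16% of all tested genes, with a median of -0.08 beside 0.01. Of the 15 genes that fell with Vhl loss in DMSO, 6 also fell with it under AZD8330 (Shmt2, Mthfd1, Mthfd2, Slc7a5, Slc3a2 and Aars), 8 were not called, and Slc1a5 rose. The plot of log2 changes shows these 4 comparisons gene by gene. The comparisons that share a group of libraries (Vhl loss in DMSO with either drug comparison, and Vhl loss under AZD8330 with either) are given side by side only.

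**Figure D1:**
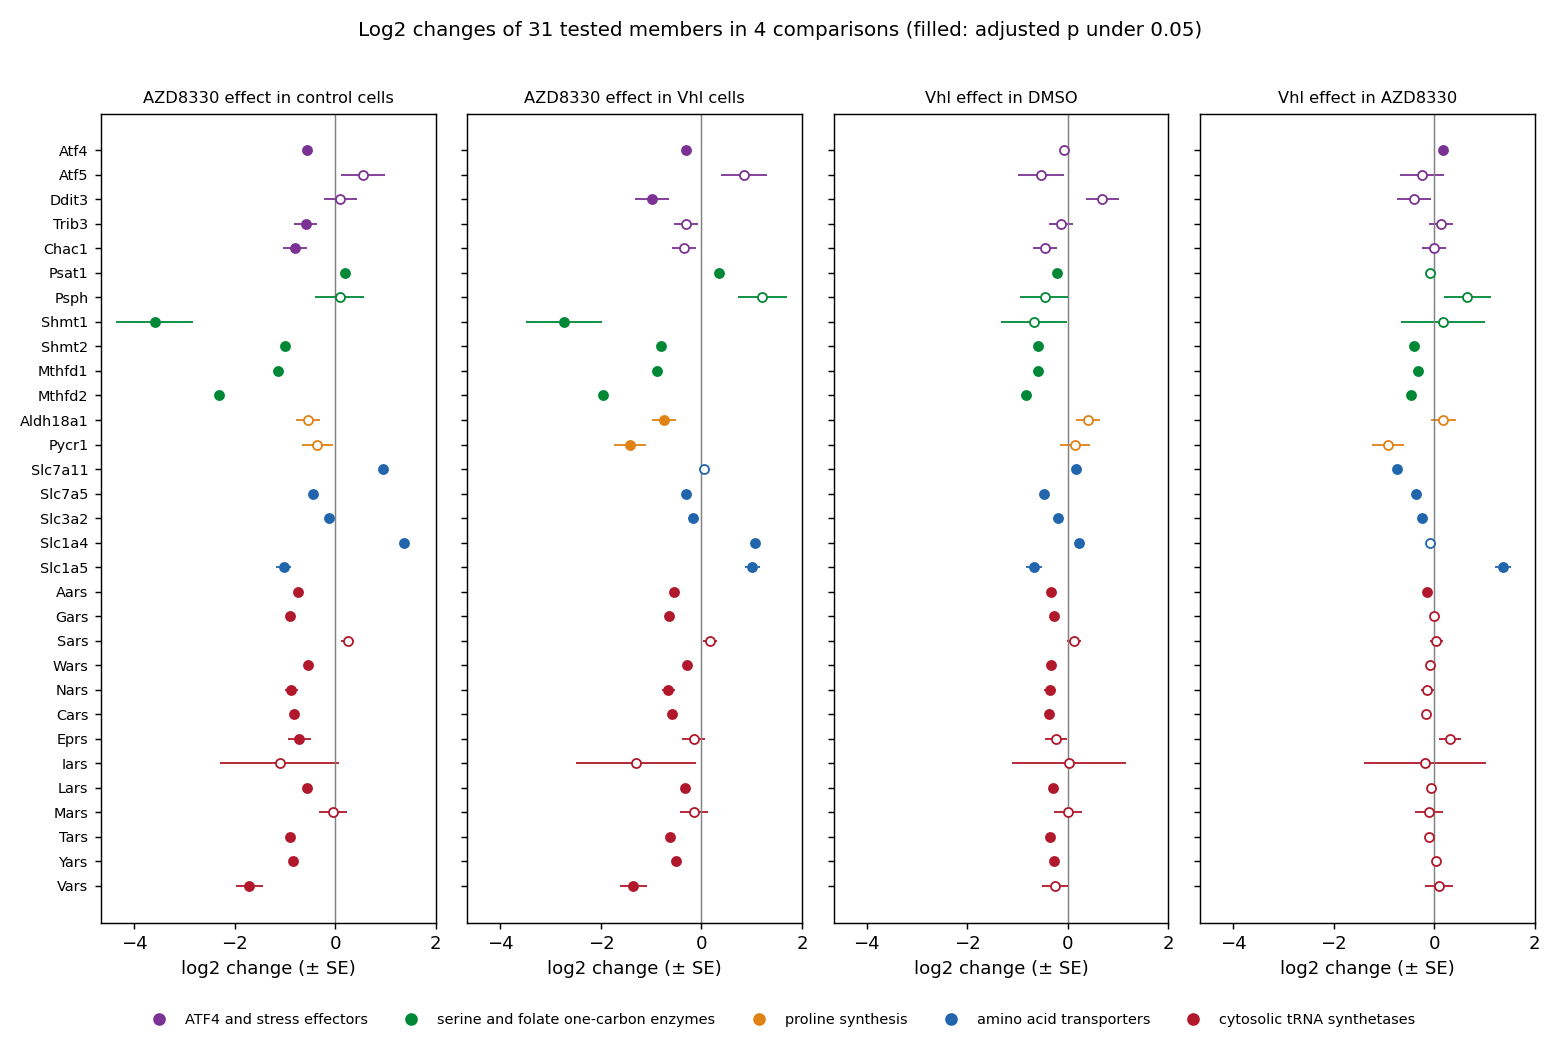
Log2 change (x axis, with standard error) of the 31 tested members (y axis, coloured by role) in 4 comparisons of the drug experiment, with filled points for an adjusted p under 0.05. Most filled points lie left of 0 for AZD8330 in both kinds of cells, with 20 falling in control cells and 19 in Vhl cells, and Slc1a5 lies on opposite sides of 0 in these comparisons.

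Atf4 itself was lowered by AZD8330 and differed little with Vhl loss. Its RNA stood at 282, 278 and 272 CPM in control DMSO libraries A, B and C, at 269.6, 267 and 256 in Vhl DMSO, at 179.6, 194 and 192 in control AZD8330, and at 203, 212 and 226 in Vhl AZD8330. All AZD8330 libraries were below all DMSO libraries. The fall was 0.681-fold in control cells (log2 change -0.56, SE 0.04, adjusted p = 1.42e-07) and 0.809-fold in Vhl cells (-0.31, SE 0.04, adjusted p = 5.88e-05). Vhl loss changed it by -0.07 in DMSO (adjusted p = 0.248) and raised it by 0.18 under AZD8330 (adjusted p = 0.00707). That rise did not pass without Vhl AZD8330 library C (0.11, adjusted p = 0.0869).

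The rows of the effectors downstream of Atf4 held low values, and few of them passed the test. Chac1, a glutathione-degrading enzyme induced by ATF4, averaged 14.1 ± 2.56 CPM (SD, n = 3) in control DMSO cells and 8.14 ± 0.237 with AZD8330, a fall of 0.80 on the log2 scale (adjusted p = 0.0113). In Vhl cells it averaged 10.3 ± 3.77 and 8.09 ± 1.74, which was not called (adjusted p = 0.251). With Vhl loss in DMSO its change was not called either (-0.45, adjusted p = 0.171). Without Vhl DMSO library A that change passed as a fall (-0.79, adjusted p = 0.0135). Trib3, a pseudokinase that dampens ATF4 and CHOP, averaged 7.22 ± 0.647 and 4.81 ± 1.34 CPM in control cells (log2 change -0.59, adjusted p = 0.0454). The Trib3 call ended in 11 of its 14 alternatives, and without control AZD8330 library A the change was -0.38 (adjusted p = 0.175). It also ended without control AZD8330 C (adjusted p = 0.087) and without control DMSO A, B or C (adjusted p = 0.0936, 0.113 and 0.0514). Ddit3, which encodes the stress factor CHOP, averaged 3.64 ± 0.687 CPM in Vhl DMSO cells and 1.84 ± 0.234 in Vhl AZD8330 cells (-0.98, adjusted p = 0.026), and its counts were 18.6 to 57.5 per library. That call ended without Vhl AZD8330 library B or C (adjusted p = 0.0525 and 0.0676) and without Vhl DMSO A or C (0.0545 and 0.0866). Atf5, a relative of ATF4, averaged 3.37 to 7.17 CPM in the 4 drug groups and passed no test, apart from a rise with AZD8330 in control cells without control AZD8330 library A (0.97, adjusted p = 0.0237). Asns, the asparagine synthetase and a standard ATF4 target, held 1 to 9.86 counts in any library of either table and was not tested. The rows of Asns, Atf5 and Ddit3 held fractional values, and whether they hold all reads of their genes was not tested.

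Among the called members, the steepest falls with AZD8330 in both kinds of cells were those of the folate enzymes Shmt1 and Mthfd2. Mthfd2, the mitochondrial dehydrogenase and cyclohydrolase that is high in dividing cells, stood at 105, 101 and 92.6 CPM in control DMSO cells and at 20.5, 20.1 and 19.3 in control AZD8330 cells. In Vhl cells it stood at 61.0, 54.2 and 53.5 in DMSO and at 14.3, 14.9 and 14.2 with AZD8330. The 4 groups did not overlap and ran in the order control DMSO, Vhl DMSO, control AZD8330, Vhl AZD8330. The fall with the drug was 0.201-fold in control cells (log2 change -2.32, SE 0.07, adjusted p = 1.47e-11) and 0.258-fold in Vhl cells (-1.96, SE 0.07, adjusted p = 1.68e-10). With Vhl loss, Mthfd2 changed by -0.82 in DMSO and by -0.46 under AZD8330 (adjusted p = 8.68e-07 and 0.000469).

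Shmt2, the mitochondrial enzyme that splits serine into glycine and a one-carbon unit, followed the same order of groups. It stood at 280.4, 279 and 276 CPM in control DMSO, 191, 185 and 176 in Vhl DMSO, 134, 144 and 141 in control AZD8330, and 101, 112 and 104 in Vhl AZD8330. Its log2 changes were -0.99 and -0.80 with the drug in control and Vhl cells, and -0.60 and -0.40 with Vhl loss in DMSO and under the drug (SE 0.05 each, adjusted p = 7.9e-10, 1.34e-08, 7.28e-07 and 2.66e-05). Mthfd1, the trifunctional folate enzyme of the cytosol, also fell in all 4 comparisons. It stood at 321, 324 and 322 CPM in control DMSO, 223, 212 and 208 in Vhl DMSO, 140.3, 152 and 147 in control AZD8330, and 119, 121 and 109.8 in Vhl AZD8330. The drug changed Mthfd1 by -1.14 in control cells and -0.88 in Vhl cells, and Vhl loss changed it by -0.59 in DMSO and -0.33 under the drug. No 2 of the 4 groups overlapped for Shmt2 or Mthfd1.

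Shmt1, the cytosolic counterpart of Shmt2, gave large fold changes from unsteady values. Its libraries held 17.4, 2.68 and 20.5 CPM in control DMSO, 6.31, 8.40 and 10.7 in Vhl DMSO, 0.318, 0.458 and 2.66 in control AZD8330, and 1.66, 0.918 and 1.24 in Vhl AZD8330. The fall with AZD8330 was -3.59 (SE 0.77, adjusted p = 0.00123) in control cells and -2.73 (SE 0.75, adjusted p = 0.00839) in Vhl cells. Libraries of a single group differed severalfold, as the 2.68 CPM of control DMSO B beside 17.4 and 20.5 shows.

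Neither of the tested serine synthesis genes, Psat1 and Psph, fell with AZD8330. Psat1, the aminotransferase of the pathway's middle step, rose with AZD8330 and was lowered by Vhl loss in DMSO. It stood at 601, 576 and 549.7 CPM in control DMSO, 683, 661 and 643 in control AZD8330, 498, 496 and 486 in Vhl DMSO, and 667, 620.0 and 594 in Vhl AZD8330. The AZD8330 groups lay above their DMSO groups in both kinds of cells, and the log2 changes were 0.20 in control cells and 0.35 in Vhl cells (SE 0.04, adjusted p = 0.00142 and 2.47e-05). With Vhl loss the change was -0.22 in DMSO (adjusted p = 0.00195) and -0.08 under AZD8330 (adjusted p = 0.21). Psph, the phosphatase of the last step, stood at 2.61, 2.41 and 1.86 CPM in control DMSO, 2.41, 3.66 and 1.22 in control AZD8330, 0.639, 2.87 and 1.44 in Vhl DMSO, and 5.19, 3.41 and 2.99 in Vhl AZD8330. In Vhl cells the drug group lay above the DMSO group (log2 change 1.21, SE 0.49), and the change just missed the threshold (adjusted p = 0.0549). It passed in the DESeq2 test (adjusted p = 0.039), with no filter (0.0255), in limma (0.0271), with the replicate letter as a block (0.0391) and without Vhl DMSO library B (0.0096). Phgdh, the enzyme of the first committed step, held 0 to 14.1 counts in any library and was not tested. Its transcripts share 55.8% of their 31-base stretches with other genes, mostly with Gm7901, whose row held 216 to 667 counts in every library. Whether reads from Phgdh were counted in that row was not tested.

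Both proline genes passed the test in a single comparison. Pycr1, which makes proline in mitochondria, averaged 3.40 ± 1.17 CPM in Vhl DMSO cells and 1.26 ± 0.290 with AZD8330 (log2 change -1.42, SE 0.32, adjusted p = 0.00244). Aldh18a1, the synthase of the pathway's first steps, averaged 34.4 ± 4.66 and 20.4 ± 3.79 CPM in the same groups (-0.75, SE 0.24, adjusted p = 0.0196). The Aldh18a1 call ended without Vhl AZD8330 library B (-0.66, adjusted p = 0.0587) and without Vhl DMSO library A (-0.64, adjusted p = 0.0715). In control cells the changes were -0.36 and -0.54 and were not called, though that of Aldh18a1 passed with no filter (adjusted p = 0.00156) and without control DMSO library C (0.00493). With Vhl loss under AZD8330, the change of Pycr1 (-0.92, adjusted p = 0.0501) passed in 5 of its alternatives, among them the DESeq2 test (adjusted p = 0.0451) and total-count scaling (0.0497). For the drug, the differences between the 2 kinds of cells did not pass the interaction test (adjusted p = 0.153 for Pycr1 and 0.759 for Aldh18a1).

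**Figure D2:**
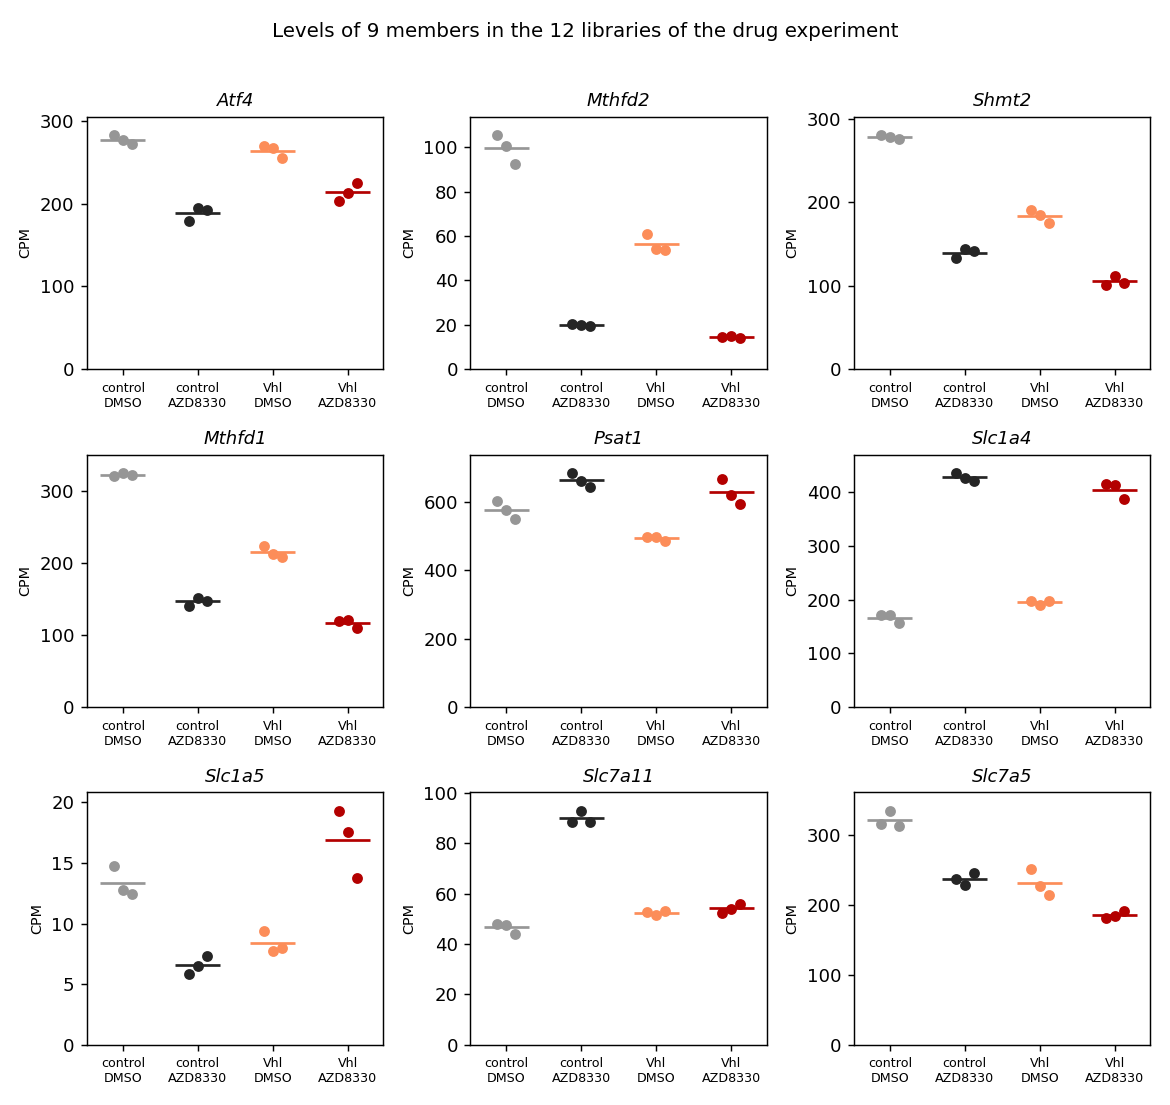
Level in CPM (y axes, starting at 0) of 9 members in the 12 libraries of the drug experiment, with 1 point per library and a line at each group's mean of 3. Mthfd2 falls from about 100 CPM in control DMSO cells to about 20 with AZD8330, while Slc1a4 rises. The mean of Slc1a5 is highest in the Vhl AZD8330 group, whose points overlap those of control DMSO.

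The amino acid transporters did not move together. Slc1a5, the glutamine carrier ASCT2, fell with AZD8330 in control cells and rose with it in Vhl cells. It stood at 14.8, 12.7 and 12.5 CPM in control DMSO and 5.84, 6.47 and 7.33 in control AZD8330, but at 9.42, 7.72 and 8.02 in Vhl DMSO and 19.3, 17.6 and 13.8 in Vhl AZD8330. Each pair of groups was separate, with the highest value of control AZD8330 below the lowest of control DMSO and the reverse order in Vhl cells. The log2 changes were -1.02 (SE 0.16, adjusted p = 7.7e-05) and 1.01 (SE 0.15, adjusted p = 0.000107). The interaction, the drug's change in Vhl cells minus that in control cells, was 2.04 (SE 0.22, adjusted p = 8.66e-05). Vhl loss accordingly changed Slc1a5 by -0.67 in DMSO and by 1.37 under the drug (adjusted p = 0.00493 and 2.16e-05).

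Slc1a4, the carrier ASCT1 for serine, alanine and cysteine, rose in both kinds of cells. It stood at 171, 172 and 157 CPM in control DMSO and 436, 427 and 422 in control AZD8330, and at 197, 189.9 and 198 and then 415, 413 and 388 in Vhl cells. The rise was 2.57-fold in control cells (log2 change 1.36, SE 0.04, adjusted p = 1.7e-11) and 2.08-fold in Vhl cells (1.06, SE 0.04, adjusted p = 2.6e-10), and the difference between them passed the interaction test (-0.31, SE 0.06, adjusted p = 0.00414). Slc7a11, the cystine and glutamate exchanger xCT, rose with the drug in control cells and had the interaction of most negative value among the called members. It stood at 47.9, 47.6 and 44.1 CPM in control DMSO, 88.4, 92.7 and 88.4 in control AZD8330, 52.8, 51.4 and 53.0 in Vhl DMSO, and 52.3, 54.0 and 56.0 in Vhl AZD8330. The control AZD8330 libraries stood above all others. The log2 change was 0.95 in control cells (1.93-fold, SE 0.05, adjusted p = 2.29e-09) and 0.05 in Vhl cells (adjusted p = 0.468), with an interaction of -0.90 (SE 0.07, adjusted p = 6.35e-06). Vhl loss changed Slc7a11 by 0.17 in DMSO (adjusted p = 0.0193) and by -0.73 under the drug (adjusted p = 1.48e-07). The call in DMSO ended without control DMSO library C (adjusted p = 0.0742), without Vhl DMSO library C (0.0555) and in the DESeq2 test (0.0616).

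The light and heavy chain of the leucine carrier LAT1 fell in all 4 comparisons, by small steps. Slc7a5, the light chain, stood at 315, 334 and 313 CPM in control DMSO, 237, 229 and 246 in control AZD8330, 251, 227 and 214 in Vhl DMSO, and 181, 184 and 191 in Vhl AZD8330. Its log2 changes were -0.44 and -0.32 with the drug in control and Vhl cells, and -0.47 and -0.35 with Vhl loss in DMSO and under the drug (SE 0.05 each, adjusted p from 9.42e-06 to 0.000266). Slc3a2, the heavy chain that also partners xCT, stood at 214, 213 and 214 CPM in control DMSO, 187, 201 and 205 in control AZD8330, 193, 187 and 179 in Vhl DMSO, and 167, 164 and 168 in Vhl AZD8330. Its changes in the same order were -0.11, -0.17, -0.20 and -0.25. The Slc3a2 call in control cells (adjusted p = 0.0225) ended without control AZD8330 library A or B (adjusted p = 0.12 each), with total-count scaling (0.208), with size factors from DESeq2 (0.0632), in the DESeq2 test (0.0706), with a minimum mean of 5 CPM (0.277) and with only the compared groups fitted (0.107). The cationic amino acid carriers Slc7a1 and Slc7a3 stayed at group means of 0.114 to 0.971 CPM in the drug experiment.

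The cytosolic tRNA synthetases, which load each tRNA with its amino acid, were the largest group of members. Of 13 tested, 10 fell with AZD8330 in control cells and 9 in Vhl cells. With Vhl loss, 8 fell in DMSO and 1 under AZD8330, and 0 rose in these 4 comparisons. The falls made up 76.9%, 69.2%, 61.5% and 7.69% of the 13, against 31.7%, 25.6%, 18.5% and 14% of all tested genes. The synthetases' median log2 changes were -0.82, -0.54, -0.28 and -0.08 in that order. The synthetases for alanine, glycine, tryptophan, asparagine, cysteine, leucine, threonine and tyrosine (Aars, Gars, Wars, Nars, Cars, Lars, Tars and Yars) fell in the first 3 comparisons.

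Of these, Gars showed the steepest change with AZD8330 in control cells. It stood at 279, 286 and 263 CPM in control DMSO, 148, 149.6 and 146 in control AZD8330, 246, 231 and 212 in Vhl DMSO, and 151, 150.2 and 141 in Vhl AZD8330. The AZD8330 groups of both kinds of cells overlapped at about the same level, while the DMSO groups were separate. The changes were -0.90 and -0.64 with the drug (SE 0.05, adjusted p = 6.28e-09 and 3.02e-07) and -0.27 with Vhl loss in DMSO (adjusted p = 0.00136), and under AZD8330 Vhl loss changed it by less than 0.01 (adjusted p = 0.961). Tars stood at 178, 168 and 158 CPM in control DMSO, 91.2, 90.9 and 89.9 in control AZD8330, 129.6, 129 and 134 in Vhl DMSO, and 80.3, 86.1 and 86.8 in Vhl AZD8330. Its changes with the drug were -0.89 and -0.64, and -0.36 with Vhl loss in DMSO.

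Nars, Yars and Cars fell to 0.546, 0.558 and 0.568 of their control level with the drug in control cells. Nars stood at 171, 195 and 170.1 CPM in control DMSO, 86.7, 87.4 and 119 in control AZD8330, 158, 128 and 133 in Vhl DMSO, and 86.8, 99.4 and 79.4 in Vhl AZD8330, with drug changes of -0.87 and -0.66. The fall of Nars with Vhl loss in DMSO (-0.36, adjusted p = 0.0421) ended without control DMSO library A, B or C (adjusted p = 0.062, 0.143 and 0.0557) and without Vhl DMSO library B or C (0.139 and 0.119). Yars stood at 223, 218 and 209 CPM in control DMSO, 116, 116 and 132 in control AZD8330, 192, 182 and 163 in Vhl DMSO, and 124, 130.2 and 120.5 in Vhl AZD8330, with drug changes of -0.84 and -0.52. The Yars groups of control and Vhl cells were separate in DMSO and overlapped under the drug. Cars stood at 79.7, 82.3 and 75.8 CPM in control DMSO, 43.3, 45.1 and 46.7 in control AZD8330, 67.9, 61.1 and 53.3 in Vhl DMSO, and 42.1, 37.2 and 42.0 in Vhl AZD8330, with drug changes of -0.82 and -0.59.

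With AZD8330 in control cells, Aars, Lars and Wars fell by smaller steps than the other 5. Aars stood at 502, 506 and 489 CPM in control DMSO, 298, 302 and 301 in control AZD8330, 416, 401 and 372 in Vhl DMSO, and 272, 279 and 268 in Vhl AZD8330. It was the single synthetase called with Vhl loss under AZD8330 (-0.14, adjusted p = 0.0171), beside -0.33 in DMSO and -0.73 and -0.54 with the drug. Wars and Tars were called there too in the DESeq2 test (adjusted p = 0.0323 and 0.0393), with size factors from DESeq2 (0.0317 and 0.0308) and with a minimum mean of 5 CPM (0.0336 and 0.0395). Lars stood at 250.01, 263 and 256 CPM in control DMSO, 168, 175 and 182 in control AZD8330, 212, 211 and 207 in Vhl DMSO, and 173, 170.0 and 161 in Vhl AZD8330. Wars stood at 197, 199 and 191 CPM in control DMSO, 131, 137 and 135 in control AZD8330, 159, 156 and 147 in Vhl DMSO, and 129, 128 and 123 in Vhl AZD8330. For both, every AZD8330 library lay below every DMSO library, with drug changes of -0.55 and -0.32 for Lars and -0.54 and -0.28 for Wars. With Vhl loss in DMSO they changed by -0.29 and -0.34.

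Vars, the valine enzyme, fell with the drug from 23.5, 24.8 and 30.2 CPM to 6.80, 9.68 and 7.48 in control cells, and from 22.0, 20.2 and 23.9 to 7.74, 4.85 and 13.3 in Vhl cells. These are changes of -1.71 and -1.36 (SE 0.27, adjusted p = 0.000108 and 0.000939), and Vhl loss left no called change (adjusted p = 0.504 in DMSO and 0.829 under the drug). Eprs, the enzyme for glutamate and proline, was called for the drug in control cells alone (-0.71, adjusted p = 0.0148). That call ended without control AZD8330 library A or C (adjusted p = 0.0576 and 0.0703) and without control DMSO library B (0.0763), and its interaction did not pass (adjusted p = 0.302). Sars, Mars and Iars were not called, apart from a rise of Sars with AZD8330 in control cells without control AZD8330 library C (0.41, adjusted p = 0.0114). The Iars row went from 4.02 to 1262 counts between libraries, and within Vhl DMSO it held 0.878, 25.9 and 28.5 CPM.

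**Figure D3:**
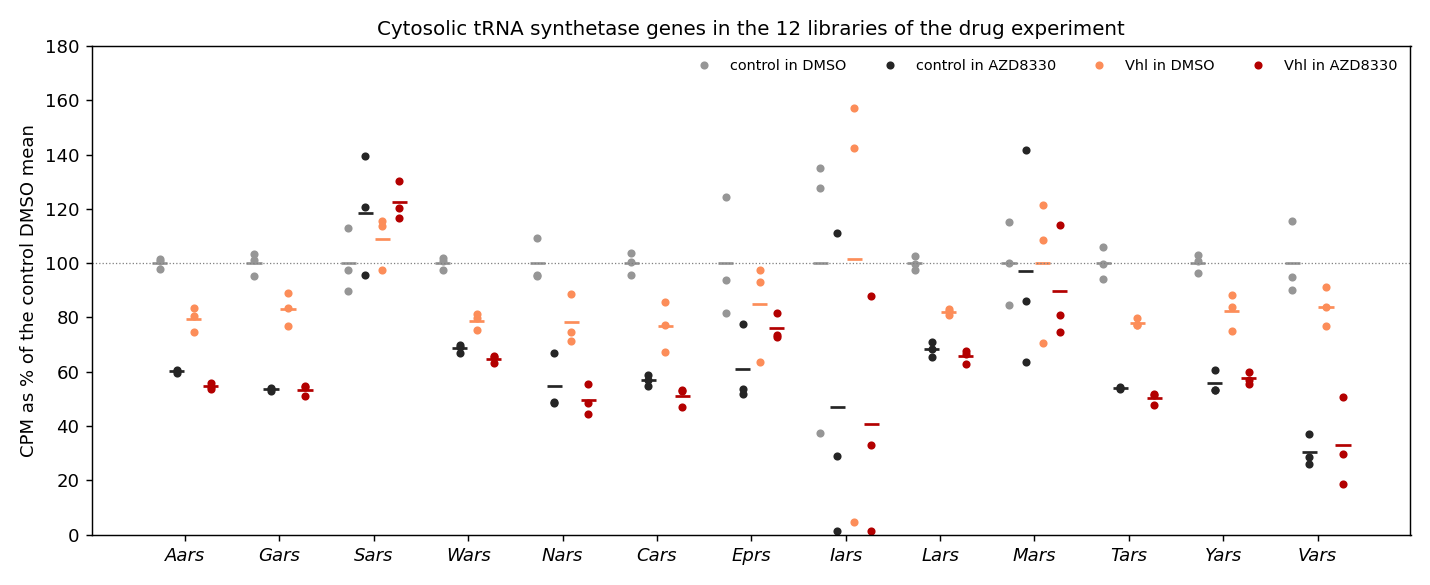
Level of the 13 cytosolic synthetase genes (x axis) as a percentage of the control DMSO mean (y axis, starting at 0) in 12 libraries, with 1 point per library and a short line at each group's mean. The AZD8330 points of Aars, Gars, Wars, Nars, Cars, Lars, Tars, Yars and Vars lie under their own DMSO points, and the points of Iars scatter within groups.

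The drug's change differed between the 2 kinds of cells for 12 members by the interaction test. The difference was positive for 10 (Atf4, Mthfd1, Mthfd2, Slc1a5, Aars, Gars, Wars, Lars, Tars and Yars) and negative for 2 (Slc7a11 and Slc1a4), against 7.81% and 4.96% of all tested genes. The members' median interaction was 0.23, beside 0.03 over all tested genes. Apart from Slc1a5, the 10 genes fell with the drug in both kinds of cells, and by less in Vhl cells, with differences of 0.20 to 0.36. These small positive differences were not steady: with total-count scaling 3 members had a called positive difference and 2 a negative one, and rises made up 43.8% of all interaction calls in place of 61.2%. With a minimum mean of 5 CPM 2 were positive, and the count lay between 1 and 10 when single libraries were left out. Slc1a5, Slc1a4 and Slc7a11 were called under all 19 alternatives tried.

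The untreated experiment was noisier, and no member passed its test. By edgeR's test 0 of 31 rose and 0 fell, against 0.0147% and 0% of all tested genes. The DESeq2 test called 1 member, Slc7a5. The members' median was -0.11, beside 0.05 over all tested genes. Slc7a5 stood at 433, 333 and 333 CPM in control libraries A, B and C and at 255, 188 and 159 in Vhl cells, so that all Vhl values lay below all control values. Its change was -0.87 (SE 0.23, adjusted p = 0.303). Without Vhl library A it was -1.08 (adjusted p = 0.0424), and without both A libraries -0.94 (adjusted p = 0.036).

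Groups of control and Vhl cells did not overlap for 8 of the 31 tested members in the untreated experiment. Vhl cells were lower for 6 (Psat1, Mthfd1, Slc7a5, Slc1a4, Aars and Lars) and higher for 2 (Trib3 and Vars), against 7.86% and 7.92% of all tested genes. Without both A libraries the groups of 2 did not overlap for 14 lower and 6 higher members, against 31.4% and 30.1% of all tested genes. Without Vhl A alone these were 12 and 4 (22% and 21.3%), and without control A alone 7 and 4 (13.3% and 13.9%). Slc1a4 stood at 279, 363 and 371 CPM in control cells and 229, 258 and 234 in Vhl cells (-0.49, adjusted p = 0.477, and -0.58 with adjusted p = 0.0667 without both A libraries), whereas in DMSO it was higher in Vhl cells. That difference between the experiments was not tested. Mthfd1 stood at 208, 155 and 150.5 CPM in control cells and 143, 127 and 115 in Vhl cells (-0.41, adjusted p = 0.572). Psat1 stood at 569, 513 and 496 and then 493, 379 and 325 (-0.40, adjusted p = 0.624). Without both A libraries the changes were -0.34 for Mthfd1 (adjusted p = 0.147) and -0.52 for Psat1 (adjusted p = 0.0975).

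Vhl library A stood apart from B and C for several members. Atf4 stood at 103, 165 and 159 CPM in control cells and at 294, 125 and 109 in Vhl cells, so library A was the highest and C among the lowest of the 6. Mthfd2 stood at 24.0, 21.1 and 24.7 CPM and then 34.5, 16.5 and 13.6, and Slc3a2 at 149.5, 147 and 134 and then 201, 85.6 and 108, with Vhl A highest each time. Among the controls, library A held 188 CPM of Slc7a11 beside 66.9 and 72.2 in B and C. The members' median change was -0.29 without Vhl A, -0.07 without control A and -0.24 without both. Over all genes, 2 rose and 0 fell with all 6 libraries, 308 rose and 131 fell without Vhl A, and 395 rose and 211 fell without both A libraries. The 5 astrocyte markers summed to 496 to 570 CPM in the untreated control libraries and 208 to 266 in the Vhl libraries, and their part in these values was not tested.

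**Figure D4:**
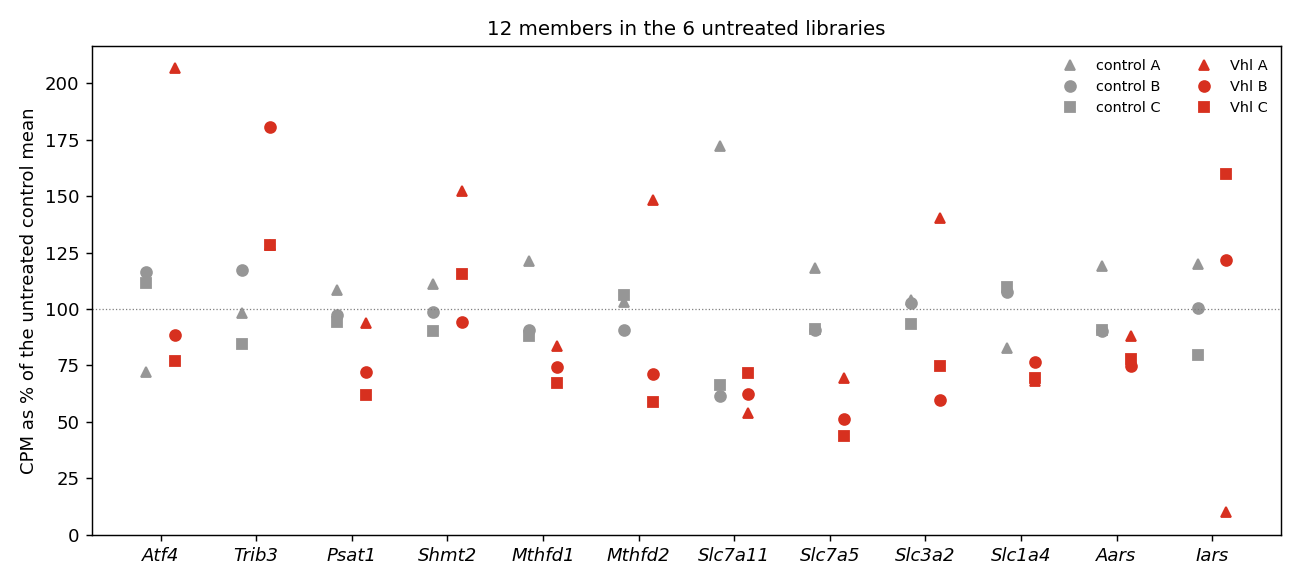
Level of 12 members (x axis) in the 6 untreated libraries as a percentage of the untreated control mean (y axis, starting at 0), with triangles, circles and squares for libraries A, B and C. Vhl library A lies above Vhl B and C for Atf4, Mthfd2 and Slc3a2, and all 3 Vhl values of Slc7a5 lie below the control values.

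Other genes of these pathways were described by the same fits. Their counts stand beside 31.7% of all tested genes falling and 29.1% rising with AZD8330 in control cells, 25.6% and 25.8% in Vhl cells, and 18.5% and 13.8% with Vhl loss in DMSO. Among 14 tested genes for eIF2, its exchange factor, its kinases and phosphatase subunits, 5 fell (35.7%) and 2 rose (14.3%) with AZD8330 in control cells and 4 fell (28.6%) with Vhl loss in DMSO. The share that fell with the drug was near that of all genes. Eif2s1, the subunit of eIF2 that the stress kinases phosphorylate, averaged 195 ± 10.6 CPM in control DMSO cells and 84.1 ± 3.25 with AZD8330 (-1.21, adjusted p = 1.31e-10). Ppp1r15b, a subunit of the phosphatase that reverses this step, averaged 216 ± 5.27 and 157 ± 2.97 CPM in these groups (-0.46, adjusted p = 7.64e-08).

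Among 18 other tested genes linked to ATF4, 9 fell (50%) and 5 rose (27.8%) with AZD8330 in control cells, and 4 fell (22.2%) and 8 rose (44.4%) with Vhl loss in DMSO. The shares that rose with the drug and fell with Vhl loss were near those of all genes. Mthfd1l, the mitochondrial enzyme that releases formate in the step after Mthfd2, rose with Vhl loss. It averaged 104 ± 6.27 CPM in control DMSO cells and 208 ± 6.78 in Vhl DMSO cells (adjusted p = 1.47e-08), and 35.8 ± 2.11 and 164 ± 3.24 with AZD8330 (2.20, adjusted p = 1.14e-11). Xpot, which exports tRNAs from the nucleus, fell from 296 ± 9.03 to 150.2 ± 3.20 CPM with AZD8330 in control cells (-0.98, adjusted p = 2.1e-10). Vldlr, the very low density lipoprotein receptor, changed by 2.09 with Vhl loss in DMSO (adjusted p = 2.81e-09). Pck2, the mitochondrial phosphoenolpyruvate carboxykinase, fell from 145 ± 3.17 to 66.9 ± 2.82 CPM with AZD8330 in control cells (-1.12, adjusted p = 3.15e-10).

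Of 16 further tested genes of the folate, glycine and methionine cycles, 9 fell (56.2%) and 3 rose (18.8%) with AZD8330 in each kind of cell, and 8 fell (50%) and 1 rose (6.25%) with Vhl loss in DMSO. Aldh1l1 was counted both in this list and among the astrocyte markers. Sfxn1, the mitochondrial serine carrier, changed by -0.77 with the drug in control cells and by -0.42 with Vhl loss in DMSO (adjusted p = 2.15e-09 and 4.24e-06). Srr, the serine racemase, rose with the drug in control cells from 59.4 ± 3.22 to 122 ± 1.90 CPM (1.04, adjusted p = 5.07e-09). Of 9 further genes for proline, glutamate and asparagine, 5 fell (55.6%) with Vhl loss in DMSO and 0 rose, among them Got2, the mitochondrial aspartate aminotransferase, at 409 ± 4.0 CPM in control DMSO cells and 274 ± 4.99 in Vhl DMSO cells (-0.58, adjusted p = 7.35e-07).

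Among 15 other tested amino acid transporters, 9 rose (60%) and 3 fell (20%) with AZD8330 in control cells, and 5 rose (33.3%) and 2 fell (13.3%) with Vhl loss in DMSO. Slc1a3 was counted both in this list and among the astrocyte markers. Slc1a1, a glutamate carrier, averaged 8.70 ± 1.45 CPM in control DMSO cells and 33.6 ± 2.08 with AZD8330 (1.95, adjusted p = 3.08e-08). Slc38a3, a glutamine carrier, moved the other way, from 356 ± 12 to 229 ± 9.92 CPM (-0.64, adjusted p = 7.53e-08).

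The remaining synthetase genes fell or were not called with AZD8330. Of 9 further tested cytosolic synthetase and scaffold genes, 5 fell (55.6%) and 0 rose in control cells, and 4 fell (44.4%) and 0 rose in Vhl cells. Eef1e1, a scaffold of the multisynthetase complex, averaged 70.2 ± 3.81 CPM in control DMSO cells and 26.4 ± 1.60 with AZD8330 (-1.41, adjusted p = 1.15e-09). Of 17 mitochondrial synthetases, 9 fell (52.9%) and 0 rose with AZD8330 in each kind of cell, and 6 fell (35.3%) and 0 rose with Vhl loss in DMSO. Ears2, for glutamate, fell by 1.27 on the log2 scale in control cells (adjusted p = 7.27e-08).

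Of 10 tested glutathione and NRF2 target genes, 5 fell (50%) and 2 rose (20%) with AZD8330 in control cells, 4 fell (40%) and 2 rose (20%) with it in Vhl cells, and 3 fell and 3 rose (30% each) with Vhl loss in DMSO. Gclc, the catalytic subunit of the first step of glutathione synthesis, averaged 85.1 ± 3.02 CPM in control DMSO cells and 113 ± 2.44 in Vhl DMSO cells (0.42, adjusted p = 1.17e-05). The 4 glycolytic genes around the branch point to serine all rose with Vhl loss in DMSO and under AZD8330, with Pgam1 at 709 ± 22.1 CPM in control DMSO cells and 2477 ± 57.1 in Vhl DMSO cells (1.81, adjusted p = 2.75e-13).

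The members' rows differed in how their values were made. For 15 members the estimated counts were whole numbers, within 0.0021, in all 18 libraries, and for 20 they were fractional in at least 1. Of the 14 tested with whole values, 12 fell and 2 rose with AZD8330 in control cells, and 10 fell and 1 rose with Vhl loss in DMSO. Of the 17 tested with fractional values, 8 fell and 1 rose, and 5 fell and 1 rose. With AZD8330 in Vhl cells, 9 of the 14 fell and 3 rose, and 10 of the 17 fell and 0 rose. With Vhl loss under AZD8330, 4 of the 14 fell and 2 rose, and 3 of the 17 fell and 0 rose. The median log2 changes of whole and fractional rows were -0.69 and -0.54 with AZD8330 in control cells, and -0.32 and -0.59 in Vhl cells. With Vhl loss they were -0.31 and -0.24 in DMSO, and -0.07 and -0.14 under AZD8330. Over all tested genes, whole and fractional rows together, 31.7% fell and 29.1% rose with AZD8330 in control cells. With it in Vhl cells, 25.6% fell and 25.8% rose. With Vhl loss, 18.5% of all tested genes fell and 13.8% rose in DMSO, and 14% and 16% under AZD8330. These shares were not computed for whole and fractional rows apart. Members of a few CPM stood in both sets, such as Atf5, Ddit3, Psph and Pycr1 with fractional values and Trib3 with whole values. Nars, Cars, Aldh18a1, Atf5 and Asns had fractional values although 0% of their 31-base stretches occur in other genes. The sources used here do not say how transcript values became gene rows. Whether the fractional rows, among them those of Slc7a11, Shmt1, Vars and Pycr1, hold all reads of their genes was not tested.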

How the data were processed

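RNA of mouse OPCs was sequenced in 18 libraries, 3 per group. Per the submitters' processing notes, Salmon 0.14.1 and the build mm10 were used; library kit, strand and annotation: not given in the sources used here. Both tables of the authors carry TPM in their names, but their column totals differ between libraries as counts do, so the authors' values were read as estimated counts (60.3% and 61.1% of values above 0 are whole within 0.0021) and rounded to whole numbers. The untreated table also holds authors' mean columns, used in no comparison. The one headed VHL equals the mean of control B, control C and Vhl A in 100% of rows.

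Each table was fitted separately with edgeR 4.0.16 in R 4.3.3 (quasi-likelihood test, TMM scaling, a minimum mean of 1 CPM, 13569 and 13460 genes). The 4 drug groups shared a fit. Adjustment by Benjamini-Hochberg covered all tested genes of a comparison, and "rose", "fell" and "called" mean an adjusted p under 0.05. All adjusted p in the text are from this test unless another is named. CPM values are estimated counts per 1000000 of the TMM-scaled library size, with SD over 3 libraries. A log2 change is the fitted difference with its standard error. The members and the lists of other pathway genes were chosen with earlier results of these data known. Values in every library are given for members called in at least 2 of the 4 simple comparisons or in the interaction, and up to 4 genes with the smallest p are named per other list. Alternatives were size factors and the test of DESeq2 1.42.0, total-count scaling, no filter, a minimum mean of 5 CPM, limma 3.58.1 on log2(CPM + 1), the replicate letter as a block, leaving out each library, and fitting the compared groups alone. A fit without both untreated A libraries was added after seeing the data. Depth of 12391077 to 21160250 counts per library limits precision mainly for members of a few CPM. Positions are from RefSeq (GRCm38.p6) windows, and 31-base stretches were compared among GENCODE M21 transcripts.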

Additional observations from a re-analysis of the deposited data

Results flagged for a closer look

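The change with AZD8330 differed between Vhl and control cells, by the interaction test of edgeR, for 12 members. As the change in Vhl cells minus that in control cells (log2), the difference was 2.04 for Slc1a5 (adjusted p = 8.66e-05), -0.90 for Slc7a11 (6.35e-06) and -0.31 for Slc1a4 (0.00414). It was 0.36 for Mthfd2 (adjusted p = 0.032), 0.32 for Yars (0.0338), 0.26 for Mthfd1 (0.0139), 0.26 for Gars (0.0335), 0.26 for Wars (0.00724), 0.25 for Atf4 (0.0178), 0.25 for Tars (0.0244), 0.23 for Lars (0.0143) and 0.20 for Aars (0.0305). The 9 latter calls each ended when some single library was left out. The number of members with a called positive difference was 1 without control AZD8330 B, 2 without control AZD8330 C, 1 without Vhl AZD8330 A, 1 without Vhl AZD8330 B and 3 without Vhl AZD8330 C, and it was 5 without control DMSO A and 6 without control AZD8330 A, control DMSO B or Vhl DMSO B. Under the alternatives the highest adjusted p was 0.0125 for Slc1a4, 0.000658 for Slc1a5 and 5.97e-05 for Slc7a11, and it lay between 0.125 (Wars) and 0.368 (Aars) for the other 9.

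Slc1a4 differed in opposite directions with Vhl loss in the 2 experiments. All 3 Vhl libraries were below all 3 control libraries when untreated (log2 change -0.49, adjusted p = 0.477), and all were above in DMSO (0.23, adjusted p = 0.00108). The difference between the experiments was not tested.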

How the results depend on the processing

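No called member changed direction under any alternative tried. With AZD8330 in control cells the number of falling members lay between 17 and 20, and in Vhl cells between 17 and 19. Leaving out single libraries, the members' median lay between -0.75 and -0.52 in control cells and between -0.54 and -0.35 in Vhl cells. For Vhl loss in DMSO the median was -0.22 with total-count scaling and -0.32 to -0.28 with single libraries left out; 1 member rose in the DESeq2 test and with no filter, and 1 to 3 with single libraries left out (1 without control DMSO C or Vhl DMSO C, 3 without control DMSO A). For Vhl loss under AZD8330 the median was -0.13 with DESeq2 size factors, -0.13 in the DESeq2 test and -0.11 with a minimum of 5 CPM. It was -0.13 to -0.086 with single libraries left out. There, 11 members fell with DESeq2 size factors and 12 in the DESeq2 test. With single libraries left out 7 to 11 fell (11 without Vhl AZD8330 A), while 1 to 2 rose (1 without Vhl AZD8330 C). Over all 13460 tested genes, too, falls went from 1884 to 2318 with DESeq2 size factors and 2295 in the DESeq2 test. Rises over all genes went from 2149 to 1796 and 1775. The median interaction was 0.17 with total-count scaling, 0.16 with a minimum of 5 CPM and 0.13 to 0.25 with single libraries left out, and 3, 2 and 1 to 10 members had a called positive interaction in these settings. In untreated cells the median was -0.29 to -0.067 with single libraries left out; 1 member fell in the DESeq2 test, 1 without both A libraries and 0 to 1 with single libraries left out (1 without Vhl A). The causes of these shifts were not tested.

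Over all genes, calls for untreated cells numbered 246 rising and 109 falling in the DESeq2 test and 112 and 31 with no filter, in place of 2 and 0. Whether the replicate letters pair the samples was not settled. Deviations from the group means correlated between -0.0809 and 0.0527 for libraries of the same letter. For Vhl loss in DMSO (0.0238 to 0.0527) and AZD8330 in Vhl cells (0.00688 to 0.0272), each letter matched best with itself. In the other comparisons some or all letters matched best with another. With the letter as a block, Nars lost its call for Vhl loss in DMSO (adjusted p = 0.0698), Yars lost its interaction call, the number of members with a positive interaction was 9, and no other member call ended. The untreated dispersion of 0.144 limits what could be called there, and members of a few CPM (Ddit3, Trib3, Pycr1, Psph and Eprs) rest on few counts.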
